A study of Mus musculus with 12 samples.

Results

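The genes described here encode the mTOR complexes, the TSC complex with Rheb, the GATOR and KICSTOR complexes and the Sestrins. They also encode kinases and stress proteins that act on these, and proteins grouped here as targets and outputs of mTORC1. They were a list of 36 genes, matched by symbol to probe sets that carry a single gene symbol, and genes of Ragulator, of the Rag GTPases and of folliculin were not among them. Of the 36, 35 were measured, out of 19937 genes in all; Rps6ka1 had no probe set with a single symbol. The 35 genes were covered by 38 probe sets, since Akt2 had 2 and Eif4e had 3, and the probe set with the highest mean stood for the gene.

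RNA came from bone marrow progenitors of mice on a C57BL6 background, in 4 groups of 3 arrays. LSK cells were sorted as Lin- Sca1+ c-kit+, a gate that holds stem cells and multipotent progenitors, and GMP cells, the progenitors of granulocytes and macrophages, as Lin- Sca1- c-kit+ CD34+ FcγR+. The KO mice carried floxed Lamtor2 alleles (Lamtor2f/f) and the WT mice unfloxed ones (Lamtor2 wt/wt); Mx1-Cre is named in the strain of both, written there as Mx1-Cre wt/wt. All mice of all 4 groups were injected with pIpC, and cells were sorted at day 14. The Mx1 promoter answers to interferon, which pIpC induces, and is not restricted to progenitors, so other cells of these mice could have lost Lamtor2 as well. Ages and the number of mice behind an array were not given, nor which LSK and GMP samples shared a mouse, so a p-value measures the spread between these samples, which may in part be technical.

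As background, mTORC1 is a kinase complex on the lysosome that raises protein synthesis when amino acids and growth factors are at hand. Growth factor signals run through Akt and the TSC complex to the GTPase Rheb, and amino acid signals run through the Rag GTPases, which Ragulator, with its Lamtor2 subunit, holds on the lysosome. GATOR1 switches the Rags off, GATOR2 counters GATOR1, KICSTOR recruits GATOR1, and the Sestrins bind GATOR2 when leucine is low. Much of this control acts on proteins, which these arrays did not measure.

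Levels are the deposited RMA values on the log2 scale, and array medians lay between 5.96 and 6.18. Lamtor2 lay at 10.31 to 10.82 in the 6 WT arrays and at 4.95 to 5.77 in the 6 KO arrays, which gives a rough guide to dim signal, since probe sets differ in background. The lowest value of any of the 35 genes on any array was 5.92. Of the markers of LSK cells, 8 of 10 were measured and all 8 were higher in WT LSK than in WT GMP, and all 10 GMP markers were lower. One library stood apart: GMP KO replicate 1 had a mean correlation of 0.979 with the other arrays of its group, against 0.985 or more for each other array, and an array weight of 0.19. GMP calls that changed without it, and the larger changes that were not called, are given both ways. In bulk RNA, fewer cells of a type and less RNA per cell cannot be told apart.

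The first question was which of these genes had other transcript levels in LSK cells without Lamtor2. At an adjusted p under 0.05 (limma, Benjamini-Hochberg over all 19937 genes), 1 of the 35 genes was higher in KO and 4 were lower, where 2.49% of all genes were higher and 1.96% were lower. The genes that fell were the 3 Sestrins and Grb10, and the gene that rose was Deptor. The other 30 did not pass, and the median change was -0.03 on the log2 scale, against -0.01 for all genes. In GMP cells, 5 of 35 were lower and 0 were higher, where 10.3% of all genes were lower and 5.78% were higher; the 5 were Sesn1, Sesn2, Mtor, Sec13 and Eif4e. The median in GMP was -0.14 against 0.01 for all genes. Of the 35 changes 28 were negative, where 9400 of all 19937 genes had a negative change. With the dimmest 30% of genes left out, the median of all genes moved by -0.04. Read against those shares, 4 of 35 in LSK is above the background of lower genes, and 5 of 35 in GMP is close to it. At an unadjusted p under 0.05, 11 of the 35 genes passed in LSK and 14 in GMP, where 15.9% and 28.1% of all genes did. In all, 8 genes were called in at least 1 of these comparisons, and Sesn1 and Sesn2 in both. Both counts changed when single arrays were left out. With each array left out in turn, the count ran from 1 to 3 in LSK and from 2 to 9 in GMP. Over all genes, the same omissions called 455 to 643 in LSK in place of 886. In GMP they called 1853 to 3628 in place of 3212. A fit of the GMP groups alone called 1, Eif4e, and 1778 of all genes. A fit of the LSK groups alone called the same 5 as the main fit (limma, adjusted p between 0.00462 and 0.00919).

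**Figure D1:**
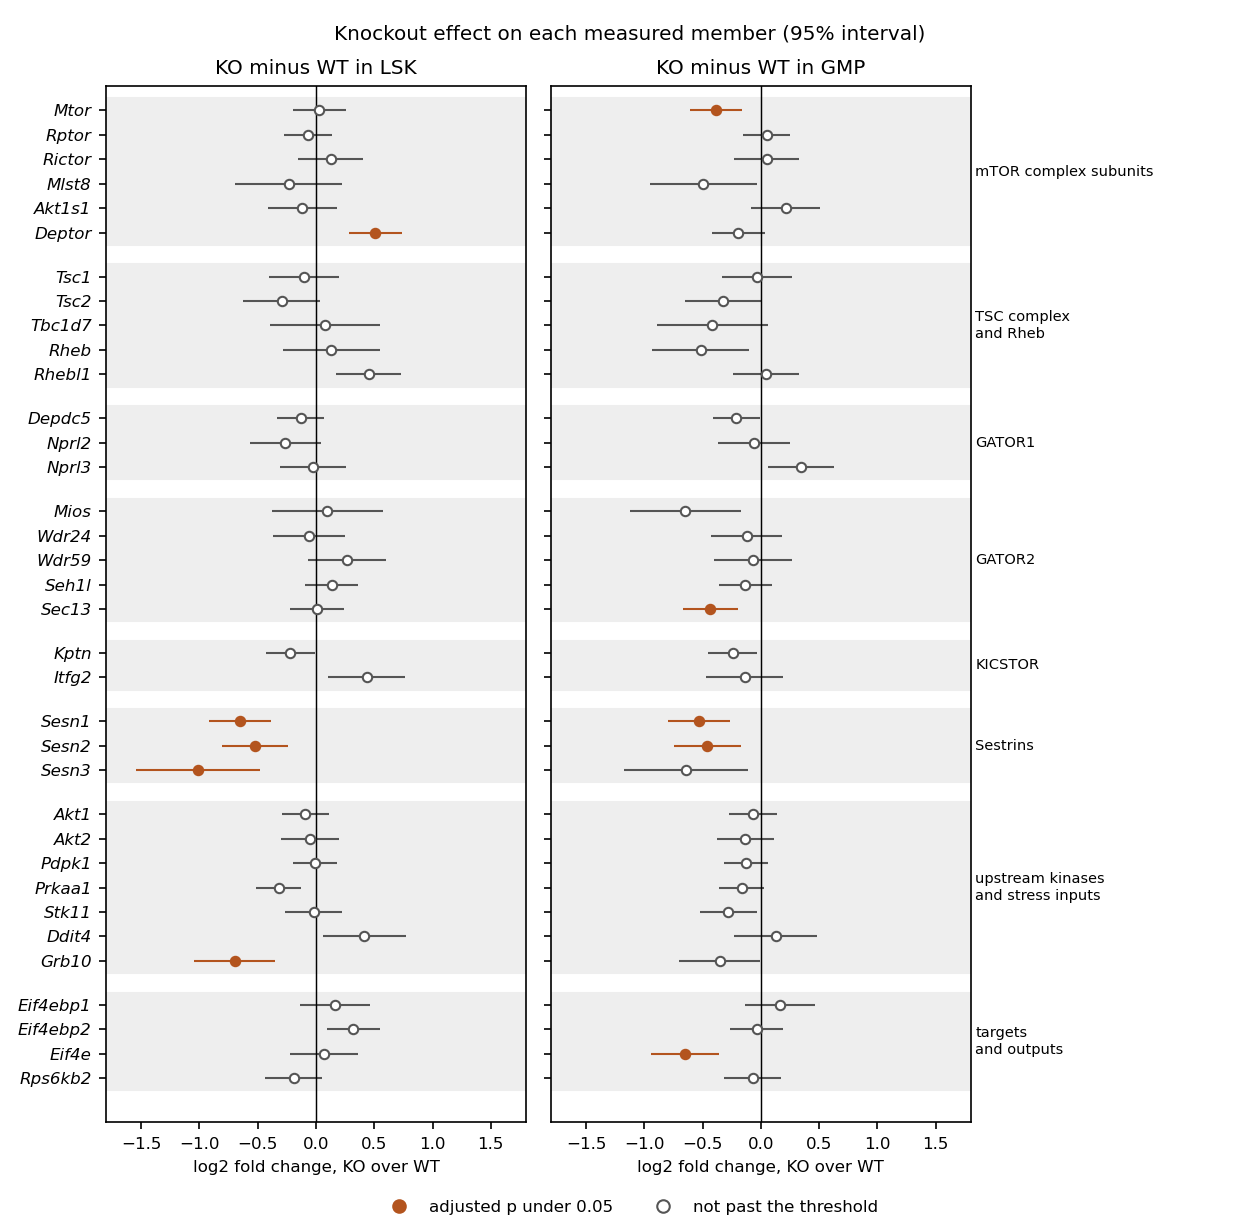
Log2 fold change of KO over WT with its 95% interval for each of the 35 genes, in LSK and in GMP, ordered by role; filled points passed the threshold. The 3 Sestrins lie below 0 in both cell types, Deptor lies above 0 in LSK at 0.51, and Mtor, Sec13 and Eif4e lie below 0 in GMP.

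The Sestrins are a family of 3 stress-inducible proteins that hold mTORC1 back, and Sesn1 and Sesn2 are known leucine-binding inhibitors of GATOR2. All 3 transcripts fell in LSK, and those of Sesn1 and Sesn2 fell in GMP. Since they are the members that moved together, their promoters are shown, from 250 bases before to 50 after each start, as RefSeq gives them for GRCm38.p6. Capitals mark CCAAT read on either strand (ATTGG on the strand printed) and TGTTTAC, a motif bound by FoxO factors; both were searched on both strands, do not overlap each other here, and were chosen after the levels had been seen.

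Sesn1 promoter at chr10:41810324-41810623 (+): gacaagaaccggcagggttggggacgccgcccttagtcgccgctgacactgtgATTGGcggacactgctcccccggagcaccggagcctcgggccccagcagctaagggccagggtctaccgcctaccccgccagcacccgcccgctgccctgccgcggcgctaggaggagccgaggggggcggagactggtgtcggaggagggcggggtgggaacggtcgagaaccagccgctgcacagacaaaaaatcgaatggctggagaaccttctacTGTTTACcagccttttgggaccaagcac

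Sesn1 promoter at chr10:41887189-41887488 (+): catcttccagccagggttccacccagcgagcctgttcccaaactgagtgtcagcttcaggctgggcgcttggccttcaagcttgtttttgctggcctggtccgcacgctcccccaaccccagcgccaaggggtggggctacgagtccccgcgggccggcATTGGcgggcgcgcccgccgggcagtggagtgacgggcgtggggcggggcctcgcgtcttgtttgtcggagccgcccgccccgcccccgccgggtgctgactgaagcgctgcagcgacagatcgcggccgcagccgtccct

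Sesn2 promoter at chr4:132510407-132510706 (-): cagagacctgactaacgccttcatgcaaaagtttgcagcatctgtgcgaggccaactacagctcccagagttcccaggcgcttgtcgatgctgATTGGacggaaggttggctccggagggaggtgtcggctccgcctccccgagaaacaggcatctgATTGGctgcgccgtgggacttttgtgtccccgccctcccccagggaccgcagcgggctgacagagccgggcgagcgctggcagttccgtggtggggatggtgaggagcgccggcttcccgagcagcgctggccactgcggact

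Sesn3 promoter at chr9:14276051-14276350 (+): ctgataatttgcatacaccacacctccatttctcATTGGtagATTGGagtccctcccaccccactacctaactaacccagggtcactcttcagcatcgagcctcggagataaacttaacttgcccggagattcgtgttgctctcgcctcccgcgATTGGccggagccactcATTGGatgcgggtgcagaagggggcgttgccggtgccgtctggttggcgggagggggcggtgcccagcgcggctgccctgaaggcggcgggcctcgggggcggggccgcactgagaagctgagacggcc

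CCAAT was found in all 4 of these windows, and it was found in 37.4% of the 32851 promoters of the same length and in 14 of the 40 promoters of the list, so it is no mark of the Sestrins. The FoxO motif was in 3.65% of all promoters and in 3 of the 40, 1 each of Sesn1, Akt1 and Stk11. CACGTG, the E-box of Myc and related factors, was in 7.15% of all promoters and in those of Eif4e, Rheb and Tbc1d7 among the 30 listed genes with a promoter in the table. TCACGTGA, the form bound by TFEB, was in 0.974% of all and in 0 of the 40, and TGATGNAA, bound by ATF4 with C/EBP factors, was in 3.97% and in a promoter of Akt2. A match is a description of the letters, not a site in use.

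The level of Sesn1 in LSK was 9.88, 9.99 and 10.05 in WT and 9.19, 9.31 and 9.45 in KO. In GMP it was 8.89, 9.09 and 8.96 in WT and 8.27, 8.73 and 8.35 in KO. Every KO array lay below every WT array of its cell type, and the LSK KO arrays still lay above the GMP WT arrays. The log2 fold change was -0.66 (SE 0.12, n = 3 against 3, adjusted p = 0.00777, limma) in LSK and -0.53 (SE 0.12, adjusted p = 0.00979) in GMP. The call in LSK held with each array left out; the call in GMP was lost without GMP WT replicate 2 (adjusted p = 0.0537).

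Sesn2 levels in LSK were 7.01, 6.91 and 7.09 in WT against 6.49, 6.50 and 6.44 in KO, 2 tight groups that did not overlap. In GMP they were 6.71, 6.69 and 6.74 in WT against 5.92, 6.27 and 6.58 in KO, where the KO arrays were spread wide and the third came close to WT. The log2 fold change was -0.52 (SE 0.13, adjusted p = 0.0403) in LSK and -0.46 (SE 0.13, adjusted p = 0.0306) in GMP. Both calls lie near the threshold: the LSK call was lost without any 1 of the 6 LSK arrays, under repeated quantile normalisation (adjusted p = 0.108) and with arrays centred on their median (adjusted p = 0.0609). The GMP call was lost without GMP KO replicate 1 (-0.29, adjusted p = 0.074), without GMP KO replicate 2 (adjusted p = 0.05) or without GMP WT replicate 1, 2 or 3 (adjusted p = 0.0799, 0.0835 and 0.0868).

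Sesn3 was at 8.35, 8.71 and 8.30 in WT LSK and at 7.15, 7.46 and 7.71 in KO LSK, with no overlap. GMP WT arrays lay at 7.13, 7.42 and 7.32, and GMP KO arrays at 7.31, 6.55 and 6.08, so that KO replicate 1 lay among the WT arrays and the other 2 below them. In LSK the log2 fold change was -1.01 (SE 0.25, adjusted p = 0.0334), a level 0.496 times that of WT, and the call was lost without any 1 of the 6 LSK arrays. In GMP it was -0.64 (SE 0.25, adjusted p = 0.0981) with all arrays, and -0.98 (adjusted p = 0.00273) without GMP KO replicate 1. The Sestrin effects were not told apart between the cell types: LSK minus GMP was -0.12 for Sesn1 (95% interval -0.50 to 0.25), -0.06 for Sesn2 (-0.47 to 0.34) and -0.37 for Sesn3 (-1.12 to 0.38).

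**Figure D2:**
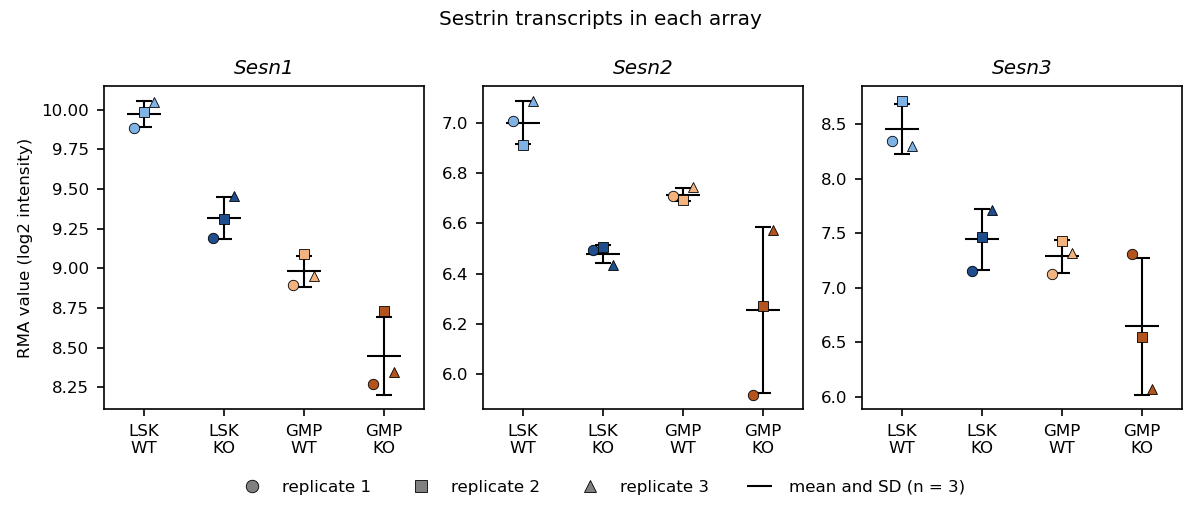
RMA level (log2) of Sesn1, Sesn2 and Sesn3 on each of the 12 arrays by group; symbols mark the replicate number, and the bars are the mean and SD of 3 arrays. In LSK the 3 KO arrays of each gene lie below the 3 WT arrays; in GMP the Sesn3 level of KO replicate 1, 7.31, lies among the WT arrays.

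Of the mTOR complex subunits, Deptor, which binds mTOR and inhibits it, rose in LSK. It was at 7.18, 7.17 and 7.22 in WT LSK and at 7.80, 7.68 and 7.61 in KO LSK. In GMP it was at 7.43, 7.77 and 7.55 in WT and at 7.43, 7.49 and 7.26 in KO. The LSK groups stand apart, while the GMP groups overlap. Its log2 fold change was 0.51 (SE 0.10, adjusted p = 0.0146) in LSK and -0.19 (SE 0.10, adjusted p = 0.26) in GMP, and the LSK call was lost when WT replicate 1 (adjusted p = 0.0572), WT replicate 2 (adjusted p = 0.061) or KO replicate 1 (adjusted p = 0.0635) of LSK was left out. The difference between the effects, 0.70 (SE 0.15, adjusted p = 0.013), passed in the fit with all arrays and with any 1 array left out. Among the 35 genes, 2 had a difference past the threshold, Deptor and Eif4e, both with the effect higher in LSK, where 5.34% of all genes had such a difference and 2.64% the opposite one; 9 passed at an unadjusted p under 0.05, as did 22.3% of all genes.

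Mtor, the kinase itself, fell in GMP. Its GMP levels were 8.36, 8.50 and 8.44 in WT and 7.84, 8.22 and 8.08 in KO, without overlap, and its LSK levels were 8.23, 8.26 and 8.26 in WT and 8.17, 8.30 and 8.37 in KO. The log2 fold change was -0.39 (SE 0.10, adjusted p = 0.0234) in GMP and 0.03 (SE 0.10, adjusted p = 0.951) in LSK, and the difference between them, 0.41, did not pass (adjusted p = 0.113). The call was lost without GMP KO replicate 1 (-0.28, adjusted p = 0.0622), GMP WT replicate 2 (adjusted p = 0.097) or GMP WT replicate 3 (adjusted p = 0.0656). Rptor, the scaffold of mTORC1, had changes of -0.07 in LSK and 0.05 in GMP, and Rictor, the scaffold of mTORC2, of 0.13 and 0.05. Mlst8, shared by both complexes, was at -0.23 and -0.49, the latter with a KO replicate 1 at 6.43 against 7.57 and 7.20 in the other KO arrays, and Akt1s1, which encodes the mTORC1 inhibitor PRAS40, was at -0.12 and 0.21. None of these 4 passed, and without GMP KO replicate 1 the GMP values were -0.18 for Mlst8, 0.03 for Akt1s1, -0.03 for Rptor and 0.22 for Rictor.

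None of the 5 genes of the TSC complex and Rheb passed in either cell type. Tsc2, the GTPase-activating subunit, was at -0.30 in LSK and -0.32 in GMP, and Tsc1, its partner, at -0.10 and -0.03. Tbc1d7, the third subunit, was at 0.08 and -0.41. Without GMP KO replicate 1 the GMP values were -0.09 for Tsc2, 0.12 for Tsc1 and -0.15 for Tbc1d7. Rheb, the GTPase that activates mTORC1, was at 0.13 in LSK and -0.52 in GMP (adjusted p = 0.0903). Its GMP KO arrays were at 8.61, 9.56 and 9.58 against 9.73, 9.81 and 9.76 in WT, so that most of the change lay in KO replicate 1, and without that array it was -0.20. Rhebl1, a relative of Rheb, was at 0.45 in LSK (adjusted p = 0.0725) and 0.04 in GMP.

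Of the GATOR genes, Sec13 alone passed, and its product also serves in COPII vesicles and the nuclear pore. It was at 9.43, 9.36 and 9.38 in WT GMP and at 8.80, 8.94 and 9.13 in KO GMP, a fall of every KO array below the WT arrays. KO over WT was -0.43 on the log2 scale (SE 0.11, adjusted p = 0.0156) in GMP and 0.01 (SE 0.11, adjusted p = 0.989) in LSK, where KO at 8.91, 8.58 and 8.86 spanned WT at 8.81, 8.71 and 8.80. The GMP call was lost without GMP WT replicate 1 (adjusted p = 0.0589) and under repeated quantile normalisation (-0.28, adjusted p = 0.0785). Mios, another GATOR2 subunit, was at -0.65 in GMP (adjusted p = 0.0626), with KO arrays at 7.24, 8.05 and 8.41 against 8.50, 8.76 and 8.39 in WT, and at -0.32 without KO replicate 1. In LSK it was at 0.10 and did not pass. Wdr24, Wdr59 and Seh1l completed GATOR2 with changes between -0.06 and 0.27 in LSK and between -0.13 and -0.07 in GMP, where Wdr24 and Wdr59 were at 0.05 and 0.16 without KO replicate 1. For the GATOR1 genes Depdc5, Nprl2 and Nprl3 the range was -0.26 to -0.03 in LSK and -0.21 to 0.34 in GMP, and none passed; the upper GMP value, that of Nprl3, was 0.20 without GMP KO replicate 1. Of KICSTOR, Kptn was at -0.22 and -0.24 and Itfg2 at 0.43 and -0.14, and neither passed.

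Among the upstream kinases and stress inputs, Grb10 fell in LSK. Grb10 is an adaptor that restrains insulin receptor signalling and is itself a target of mTORC1. Its level was 7.35, 7.57 and 7.46 in WT LSK and 6.89, 6.58 and 6.80 in KO LSK, without overlap. In GMP it was 7.04, 7.55 and 6.86 in WT and 6.84, 6.59 and 6.96 in KO, which overlapped. That is a log2 fold change of -0.70 (SE 0.16, adjusted p = 0.0252) in LSK and of -0.35 (SE 0.16, adjusted p = 0.173) in GMP. Without GMP KO replicate 1 the GMP value was -0.37. The LSK call held without LSK KO replicate 1 and was lost without any other LSK array (adjusted p = 0.0551, 0.112 and 0.0785 without WT replicate 1, 2 and 3, and 0.107 and 0.075 without KO replicate 2 and 3). Prkaa1, which encodes a catalytic subunit of AMPK, was at -0.32 in LSK (adjusted p = 0.0639), with KO arrays at 8.37, 8.38 and 8.37 below WT arrays at 8.85, 8.59 and 8.64. In GMP it was at -0.165 and did not pass. There the KO arrays, at 8.335, 8.248 and 8.246, also lay below the WT arrays at 8.479, 8.471 and 8.375. Stk11, the gene of the AMPK-activating kinase LKB1, was at -0.28 in GMP (adjusted p = 0.119) and at -0.41 (adjusted p = 0.00927) without GMP KO replicate 1, which at 9.84 lay with the WT arrays at 9.87, 9.94 and 9.79 and apart from the other KO arrays at 9.46 and 9.44. In LSK it was at -0.02. Ddit4, the gene of the mTORC1 inhibitor REDD1, was at 0.42 in LSK, where KO ran from 7.11 to 7.89, and at 0.13 in GMP. It did not pass in either. Akt1, Akt2 and Pdpk1, the growth factor kinases, had changes between -0.13 and -0.01 in both cell types; the second probe set of Akt2 gave -0.05 in LSK and -0.23 in GMP, and did not pass either.

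Of the mTORC1 targets and outputs, Eif4e encodes the cap-binding translation factor that the 4E-BP proteins hold back. Its probe set with the highest signal fell in GMP. That set gave 9.92, 10.02 and 9.85 in WT GMP and 8.96, 9.46 and 9.43 in KO GMP, without overlap, and 9.61, 9.46 and 9.59 in WT LSK and 9.75, 9.41 and 9.69 in KO LSK, which overlapped. The log2 fold change was -0.65 (SE 0.14, adjusted p = 0.0053) in GMP and 0.07 (SE 0.14, adjusted p = 0.897) in LSK, with a difference of 0.72 (SE 0.19, adjusted p = 0.0353). The probe sets of Eif4e disagreed. The second gave -0.31 in GMP (adjusted p = 0.0756), and the third, the dimmest at 6.16 to 6.84, gave 0.20 (adjusted p = 0.331), so the fall is that of 1 probe set of 3. Probe positions were not used here, so whether each set reads Eif4e alone or also a near-identical copy was not tested. The difference between the cell types was also lost without any 1 of 8 of the 12 arrays, and it was 0.31 and -0.004 on the other 2 probe sets. Eif4ebp1 and Eif4ebp2, which encode the 4E-BP inhibitors, were at 0.16 and 0.32 in LSK and at 0.16 and -0.04 in GMP, and Rps6kb2, which encodes an S6 kinase, was at -0.19 and -0.07; none of the 3 passed, and Eif4ebp1 was at -0.02 in GMP without KO replicate 1.

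**Figure D3:**
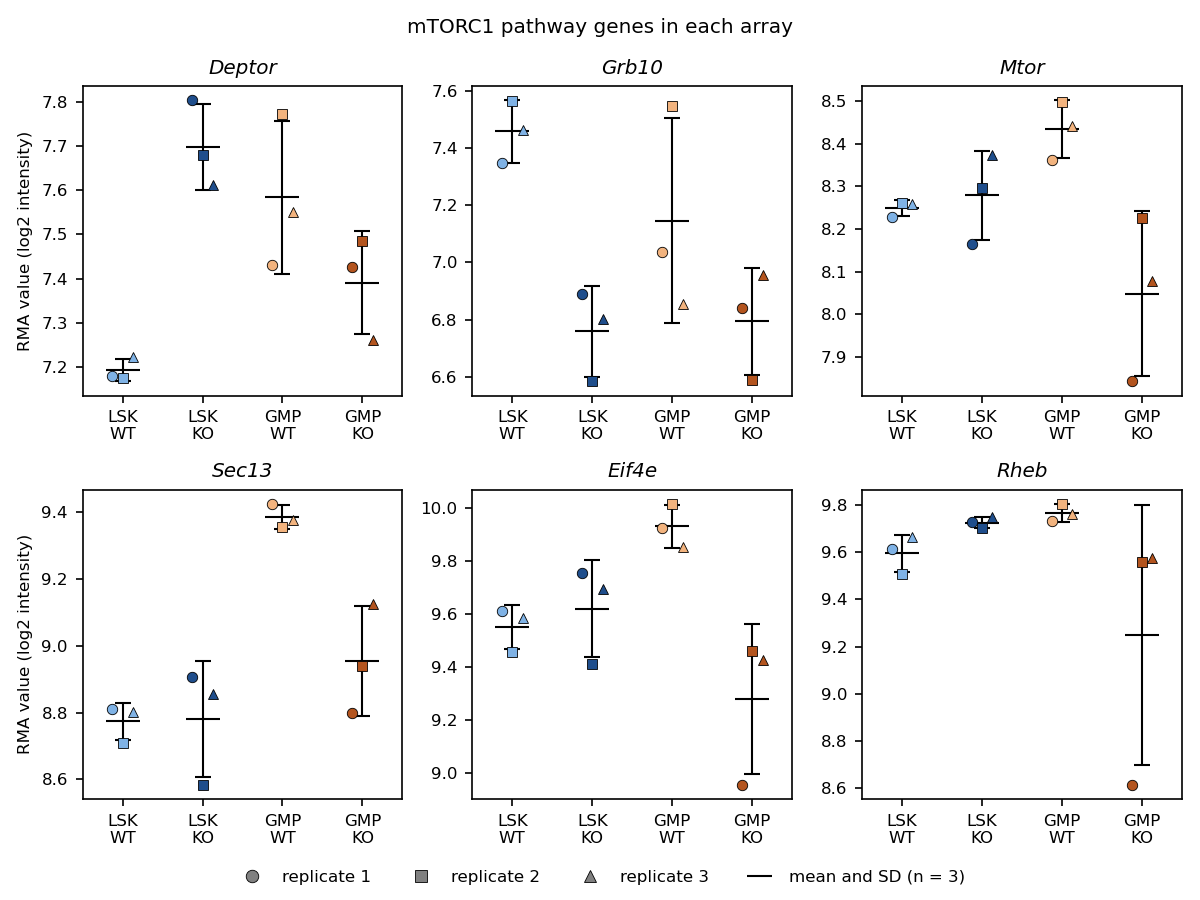
RMA level (log2) of Deptor, Grb10, Mtor, Sec13, Eif4e and Rheb on each of the 12 arrays by group; symbols mark the replicate number, and the bars are the mean and SD of 3 arrays. The KO arrays of Deptor lie above and those of Grb10 below WT in LSK, those of Mtor, Sec13 and Eif4e lie below WT in GMP, and GMP KO replicate 1 of Rheb lies alone at 8.61.

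GMP KO replicate 1 moved the GMP comparison in both directions. Without it, Sesn1, Sec13 and Eif4e stayed past the threshold, Mtor and Sesn2 were lost, and Sesn3 and Stk11 were gained, so that again 5 of the 35 were lower and 0 higher in KO. The sign turned for 5 genes, Rptor, Tsc1, Wdr24, Wdr59 and Eif4ebp1, none of them called, and 27 of the 35 changes were negative in place of 28. Over all genes the shares without it were 6.22% higher and 9.26% lower.

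**Figure D4:**
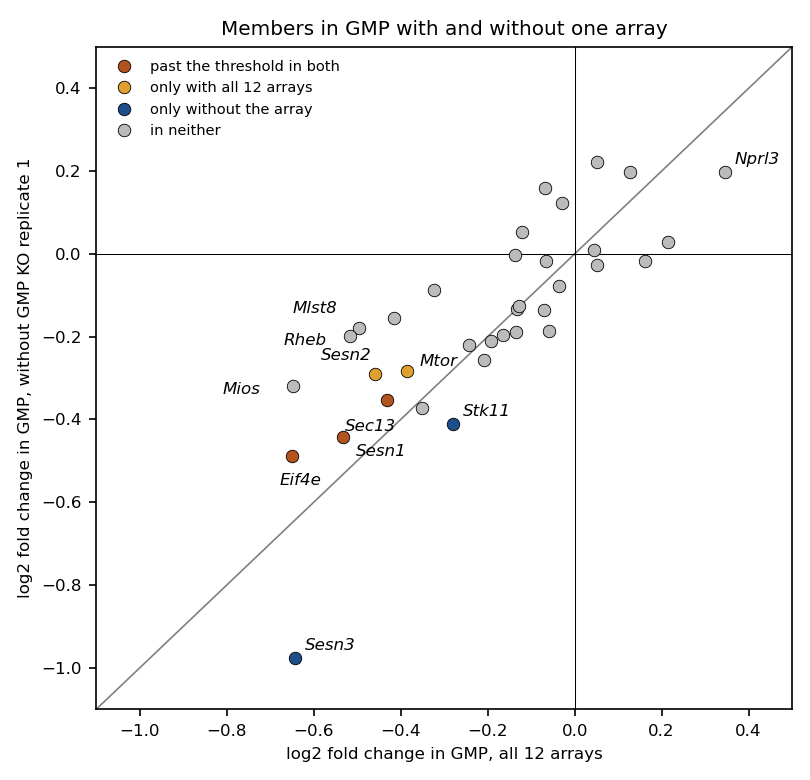
Log2 fold change of KO over WT in GMP for each of the 35 genes with all 12 arrays (horizontal) and without GMP KO replicate 1 (vertical); the diagonal marks equal values and colour marks which fit passed the threshold. Sesn3 goes from -0.64 to -0.98, while Rheb and Mios move toward 0.

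Markers of other cell types moved with the deletion. The mean level of 15 macrophage markers was 5.84 to 6.05 in WT LSK and 6.41 to 7.38 in KO LSK, and 6.31 to 6.46 in WT GMP and 7.76 to 8.28 in KO GMP; 4 of the 15 rose in LSK and 10 of 15 in GMP. The mean of 10 GMP markers was 7.68 to 8.54 in WT LSK and 9.02 to 9.59 in KO LSK, and 5 of the 10 rose. The mean of 7 mast cell and basophil markers was 6.51 to 7.33 in WT LSK and 8.15 to 9.17 in KO LSK, where 4 of 7 rose, and 8.65 to 9.25 in WT GMP and 9.48 to 10.85 in KO GMP, where 3 of 7 rose. The mean of the 8 measured LSK markers was 9.60 to 9.71 in WT LSK and 9.31 to 9.58 in KO LSK, where Hlf fell, and in GMP, where Kit and Flt3 rose, it was 7.38 to 7.61 in WT and 7.53 to 7.88 in KO. The mean of the GMP markers was 10.98 to 11.07 in WT GMP and 10.86 to 10.93 in KO GMP, with 1 of 10 higher and 2 lower. The mean of 5 megakaryocyte markers was 7.22 to 7.82 in WT LSK and 6.53 to 6.86 in KO LSK, where Pf4 fell. Ppbp also passed as lower in KO LSK. Its group means, 5.52 in WT LSK and 4.17 in KO LSK, lie within and below the range of deleted Lamtor2, so no change is read from it. In GMP the mean of the 5 markers was 6.25 to 6.55 in WT and 6.18 to 6.71 in KO, where Vwf rose (0.76) and Gp9 fell (-0.55). The mean of 6 B cell markers was 5.79 to 6.23 in WT LSK and 5.55 to 5.74 in KO LSK, with 0 of 6 called and 3 at an unadjusted p under 0.05, and 5.89 to 6.21 in WT GMP and 5.59 to 5.67 in KO GMP, where 2 of 6 fell. In the erythroid, mature neutrophil and T and NK cell lists, 0 markers were called in LSK and at most 2 in GMP. The mean of the 7 neutrophil markers varied widely within groups, from 7.90 to 9.715 in WT LSK and 7.55 to 9.44 in KO LSK. In GMP it ran from 7.81 to 9.91 in WT and 7.52 to 9.59 in KO. With that spread, a missing call says little about the neutrophil markers. At an unadjusted p under 0.05, 3 of 7 T and NK cell markers and 1 of 7 neutrophil markers passed in LSK. The called GMP changes were large for some: 2.825 for Cd4 and -0.52 for Nkg7, -1.68 for the erythroid Car1 and -1.52 for the neutrophil Ly6g. The group means of Ly6g, 5.44 in WT GMP and 3.925 in KO GMP, lie within and below the range of deleted Lamtor2, so its fall is uncertain. Beside these, and with the WT LSK arrays shared by both comparisons, WT LSK minus WT GMP was 0.99 for Sesn1, 0.29 for Sesn2, 1.16 for Sesn3, 0.31 for Grb10 and -0.39 for Deptor. The part of the cell mixture in the changes of the 35 genes was not tested.

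The other genes of the pathway, from a list of 70 of which 63 were measured, are set against the same shares. In LSK 5 of 63 were higher and 2 were lower, where 2.49% and 1.96% of all genes were. In GMP 7 were higher and 5 lower, where 5.78% and 10.3% of all genes were. Sgk1, which encodes a kinase downstream of mTORC2, rose in both, by 1.09 (SE 0.21, adjusted p = 0.00866) in LSK and by 2.52 (SE 0.21, adjusted p = 5.71e-06) in GMP, from group means of 6.07 and 6.21 in WT to 7.16 and 8.74 in KO. Pik3ip1, an inhibitor of PI3K, rose by 0.72 in LSK (adjusted p = 0.00108) and 0.54 in GMP (adjusted p = 0.00279). Pik3cb, a catalytic subunit of PI3K, rose by 0.86 in LSK (adjusted p = 0.00103) and by 0.42 in GMP (adjusted p = 0.0278). Myc, a transcription factor that drives growth, rose by 0.44 in LSK (adjusted p = 0.016), a call lost when any of WT replicate 2 or 3 and KO replicate 1 or 3 of LSK was left out (adjusted p = 0.0805, 0.0556, 0.0509 and 0.0696). Castor2, a relative of the arginine sensor of mTORC1, fell by 0.99 in LSK (adjusted p = 0.00055). Prkaa2, the second catalytic subunit of AMPK, also passed in LSK, but its group means of 4.03 to 4.76 lie below every Lamtor2 value of the KO arrays, so no change is read from it.

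In GMP, Phlpp1, a phosphatase that acts on Akt, rose from a mean of 5.32, within the range of deleted Lamtor2, to 6.66 (adjusted p = 0.000708). Irs2, an insulin receptor substrate, rose by 0.82 (adjusted p = 0.00111). Phlpp2, the other phosphatase of that family, fell by 0.71 (adjusted p = 0.00406), and Mapkap1, which encodes the mTORC2 subunit SIN1, fell by 0.54 (adjusted p = 0.00533). Lars, the leucyl-tRNA synthetase, fell by 0.43 (adjusted p = 0.0138), a call lost without GMP WT replicate 2 (adjusted p = 0.0738), and Maf1, a repressor of RNA polymerase III, fell by 0.44 (adjusted p = 0.0294), a call lost without GMP KO replicate 1 (adjusted p = 0.0873), GMP WT replicate 2 (adjusted p = 0.144) or GMP WT replicate 3 (adjusted p = 0.0525). A fit of the GMP groups alone called 6 of the 63 in place of 12.

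The last comparison asked how the WT cell types differ in these genes. Of the 35, 5 were higher in WT LSK than in WT GMP and 3 were lower, where 10.3% of all genes were higher and 9.32% were lower; 14 passed at an unadjusted p under 0.05, as did 29.2% of all genes. Sesn1 was higher in LSK by 0.99 (SE 0.12, adjusted p = 5.9e-05) and Sesn3 by 1.16 (SE 0.25, adjusted p = 0.00376), with all LSK arrays above all GMP arrays for both, while Sesn2 was at 0.29 (adjusted p = 0.169). Sec13 was lower in LSK by 0.61 (SE 0.11, adjusted p = 0.0011), with LSK at 8.71 to 8.81 and GMP at 9.36 to 9.43. These 3 calls held with each of the 6 WT arrays left out.

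The other 5 were smaller and less secure. Rictor was at 7.57 to 7.76 in WT LSK and 7.14 to 7.19 in WT GMP, a difference of 0.48 (adjusted p = 0.0184), and Tsc1 was at 8.07 to 8.22 against 7.57 to 7.79, a difference of 0.47 (adjusted p = 0.0282). Ddit4 was higher in LSK by 0.50 (adjusted p = 0.0472). Deptor was lower in LSK, at -0.39 (adjusted p = 0.0172), and so was Depdc5, a GATOR1 subunit, at -0.30 (adjusted p = 0.0337). Ddit4 and Depdc5 lost their calls without any 1 of the 6 WT arrays. Deptor lost its call when LSK replicate 1 or 2 or GMP replicate 2 of the WT arrays was left out, Rictor when LSK replicate 2 or GMP replicate 1 or 3 was, and Tsc1 when LSK or GMP replicate 2 or 3 was, with adjusted p-values between 0.0536 and 0.116. With arrays centred on their median the split became 2 higher and 5 lower, where 1563 genes were higher and 2989 lower in place of 2047 and 1858. This comparison shares its WT arrays with those above, so its signs are no independent view of them.

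**Figure D5:**
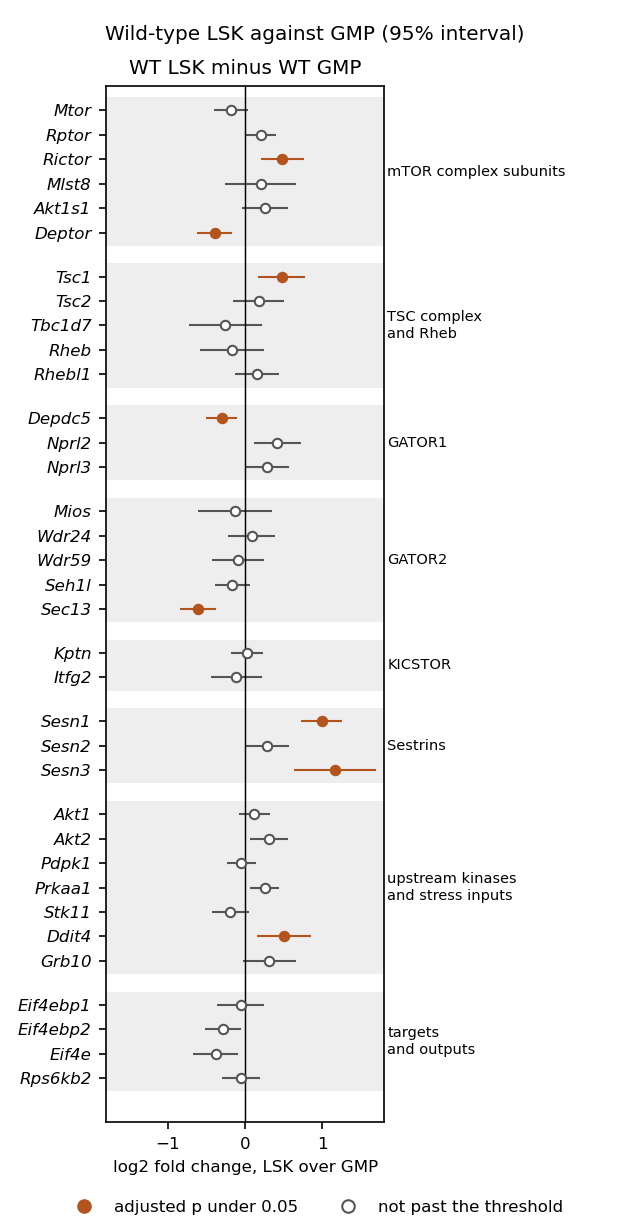
Log2 difference of WT LSK minus WT GMP with its 95% interval for each of the 35 genes, ordered by role; filled points passed the threshold. Sesn3 at 1.16 and Sesn1 at 0.99 are the highest and Sec13 at -0.61 is the lowest.

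Among the other pathway genes the WT cell types differed in 23 of 63, with 13 higher in LSK and 10 lower, where 10.3% and 9.32% of all genes were. Higher in LSK were Ulk1, the kinase that starts autophagy (0.87, adjusted p = 4.09e-05), Foxo3, a transcription factor restrained by Akt (0.85, adjusted p = 0.000149), Prkag2, a regulatory subunit of AMPK (1.06, adjusted p = 0.000181), and Phlpp1, whose GMP level lay within the range of deleted Lamtor2. Lower were Pik3cb (-0.96, adjusted p = 5.51e-05), Lars (-0.66, adjusted p = 0.000504), Sar1b (-0.59, adjusted p = 0.00111), a COPII GTPase, and Pdcd4 (-0.76, adjusted p = 0.00112), a translation inhibitor that S6 kinase marks for decay. None of these 8 lost its call with an array left out. Over the 35 genes and the 4 comparisons, 12 genes were called at least once and 23 never.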

How the data were processed

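The deposited table holds log2 intensities of 12 Affymetrix arrays, made by the authors with RMA (background correction, quantile normalisation between arrays, summary of each probe set), per the submitters' processing notes. Its software, version and genome build were not given in the sources used here. Before labelling, the RNA had been amplified (NuGEN WT-Ovation Pico), per the labels' protocols. RMA sets array distributions equal before the summary of probe sets, so a shift of all transcripts could go unseen. After the summary the array medians still ran from 5.96 to 6.18, so some shifts between arrays remained in the values. Of 34760 probe sets, 21640 had a single gene symbol in the platform annotation and gave 19937 genes, each by its probe set with the highest mean over all arrays.

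limma 3.58.1 (R 4.3.3) fitted all 4 groups together over the 12 arrays with lmFit and eBayes, which left 8 residual and added 5.16 prior degrees of freedom. Tests were two-sided, p-values were adjusted by Benjamini-Hochberg over the 19937 genes, and an adjusted p under 0.05 was called. There were 4 contrasts: the KO effect in LSK, the KO effect in GMP, the LSK effect minus the GMP effect, and WT LSK minus WT GMP. SE is that of the fit. The fit was tested on simulated data. Neither depth nor counts lie behind a value; the number of arrays limits precision.

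The genes and lists were chosen with earlier results of these data known. KO effects are given for each measured gene of the list, for some genes only as a range over several of them. Other pathway genes are named by the smallest p in each direction, up to 4 per comparison, if past the threshold. Alternatives were repeated quantile normalisation, median centring, leaving out the dimmest 30% of genes, the mean of probe sets, trend and robust options, array weights, only the groups compared, a replicate block and each array left out; each other probe set of a called gene was added after the data were seen. Promoters were searched for exact letters on both strands.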

Additional observations from a re-analysis of the deposited data

Results flagged for a closer look

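The KO effect differed between LSK and GMP, by the test of the difference itself (limma, adjusted over all genes), for 2 of the 35 genes and 9 of the other 63 pathway genes; of all genes, 5.34% had an effect higher in LSK and 2.64% a lower one. A positive value means an effect higher in LSK. Deptor differed by 0.70 and Eif4e, on 1 of its 3 probe sets, by 0.72. Lars differed by 0.90, rising in LSK (0.47, adjusted p = 0.0222) and falling in GMP (-0.43, adjusted p = 0.0138), and Slc7a5, the leucine transporter subunit, differed by 0.88 with neither single effect past the threshold. Maf1 differed by 0.70 and Tti2, an assembly factor of mTOR, by 0.53. The effect was lower in LSK for Phlpp1 (-1.49), Sgk1 (-1.43) and Castor2 (-0.65); the WT GMP level of Phlpp1 lies within the range of deleted Lamtor2, so the size of its difference is uncertain. Prkaa2 also passed (-0.69), but all its group means lie below that range and no change is read from it. The calls of Deptor, Lars, Slc7a5, Phlpp1 and Sgk1 held in all alternatives, array omissions included; those of Maf1, Tti2, Castor2 and Prkaa2 were each lost without at least 3 of the 12 arrays. Groups of 3 arrays were too small to test for outlying arrays.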

How the results depend on the processing

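The counts of called genes among the 35 were 5 in LSK, 5 in GMP, 2 for the difference and 8 between the WT cell types. With array weights they became 8 in LSK and 14 between the WT cell types. Over all genes, array weights raised the calls from 886 to 1734 in LSK and from 3905 to 5684 between the WT cell types. With arrays centred on their median, GMP gave 9. With only the groups compared, LSK stayed at 5, GMP gave 1 and the WT comparison 14. Over all genes these fits called 1390, 1778 and 5400, in place of 886, 3212 and 3905. The difference gave 1 under repeated quantile normalisation and 1 with the mean of all probe sets. Leaving out each array gave 1 to 3 in LSK, 2 to 9 in GMP, 1 to 4 for the difference and 4 to 5 between WT cell types. Over all genes these omissions called 455 to 643, 1853 to 3628, 800 to 2006 and 2980 to 3206. The main fit called 886, 3212, 1591 and 3905. Of the other pathway genes, GMP gave 6 in place of 12 with only the groups compared, and the difference 4 in place of 9 under repeated quantile normalisation. Among the called genes, signs turned for Eif4e alone, on its dimmest probe set (0.20 in GMP and -0.004 for the difference); the cause was not tested. Over all genes, the GMP split of 1153 higher and 2059 lower became 1199 and 1422 under repeated quantile normalisation and 913 and 2781 with centring, and that of the difference, 1064 and 527, became 586 and 499, and 1577 and 376.

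Replicate numbers were not used as pairs. Deviations of same-numbered arrays correlated between -0.231 and 0.285, which cannot decide whether such arrays shared a mouse or a batch. With the replicate block the counts were 6, 6, 2 and 7. For the genes of the list called in the main fit, each pair of a call and an alternative was counted, the other probe sets of Eif4e included. The call and its sign were kept in 141 of 162 such pairs, and in 72 of 132 pairs of a call and an array omission. Genes not called in the main fit were not counted.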
